A study of Mus musculus with 3 samples.

Results

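Transcripts of 10 genes of the Hippo pathway were followed across metaplastic, duct and acinar cells of the mouse pancreas. The genes encode the coactivators YAP and TAZ (Yap1, Wwtr1), the DNA-binding partners Tead1 and Tead2, the feedback inhibitors Lats2, Amotl2 and Ptpn14, and the secreted or nuclear target products of Ccn1, Ccn2 and Ankrd1. They were taken by name, and every probe whose RefSeq accession belongs to one of them was kept, which gave 14 probes for the 10 genes out of 21150 named genes on the array. The material was laser-microdissected pancreas of 3 wild-type mice, taken 48 h after caerulein pancreatitis, and each cell type had 1 array. Laser microdissection cuts chosen cells out of a tissue section under the microscope. The groups were ADM cells (acinar-to-ductal metaplasia, the change of enzyme-secreting acinar cells toward a duct-like form), duct cells and acinar cells, and all of them came from caerulein-treated pancreas, so no uninjured tissue was compared. Caerulein mimics cholecystokinin and, in excess, drives acinar cells into injury. The sources used here do not state strain, age, how the cells were recognised, or whether each array was made from 1 mouse or from pooled mice.

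The Hippo pathway is a kinase chain that controls organ size and regeneration. When the MST and LATS kinases are active they phosphorylate YAP and TAZ, which are then held in the cytoplasm or degraded; when they are inactive, YAP and TAZ enter the nucleus and bind TEAD proteins on DNA. Several targets of this complex, LATS2, AMOTL2 and PTPN14 among them, act back on YAP and limit it. In the adult pancreas YAP is known as a protein of duct and centroacinar cells that is scarce in resting acinar cells and appears in them during pancreatitis and metaplasia. The arrays measure RNA, and not the phosphorylation or location of YAP and TAZ.

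Levels are log2 values of the background-subtracted spot signal with the 75th percentile of the array set to 0. The error given with a level is that of the scanner software for 1 spot, in log2 units, and covers the spot only. With 1 array per group no difference has a replicate check, no test was possible, and precision is limited by there being 3 arrays in all. A gene was counted as higher or lower at a 2-fold difference (1 log2 unit). With 1 side not well above background the difference is a lower bound, written as "at least". The acinar array was the weakest, with 40.7% of 55664 probes well above background (a flag of the scanner software), beside 49.7% for ADM and 50.02% for duct. Among genes with a second probe and at least a 2-fold difference by the brightest one, the second probe had the same sign in 62.0% for ADM against acinar, 66.1% for ADM against duct and 62.2% for duct against acinar, so a gene with 1 probe is uncertain. Of the 10 genes, 7 had 1 probe.

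The 10 transcripts did not move as a block. In 5 of them (Yap1, Wwtr1, Amotl2, Ccn1 and Ccn2) the measured level was highest in duct cells, intermediate in ADM cells and lowest in acinar cells. Not every step of this order was resolved. ADM and acinar were within 2-fold for Yap1 and Amotl2, and ADM and duct for Wwtr1. Tead2 had the opposite order, with its highest level in acinar cells and its lowest in duct cells. Ptpn14 was highest in ADM, with duct and acinar not separable, and the order of Ankrd1 could not be told, since its acinar spot was not well above background and ADM and duct differed by less than the spot error. Lats2 was highest in ADM and lowest in duct, and Tead1 was highest in acinar and lowest in ADM by its brightest probe. By the brightest probes, ADM and acinar were within 2-fold for Lats2, and every difference was within 2-fold for Tead1. All 10 were well above background on the ADM array and on the duct array, and 6 of them on the acinar array, where Wwtr1, Ptpn14, Ccn2 and Ankrd1 were not. In tissue cut by laser, fewer cells of a type and less RNA per cell cannot be told apart.

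**Figure D1:**
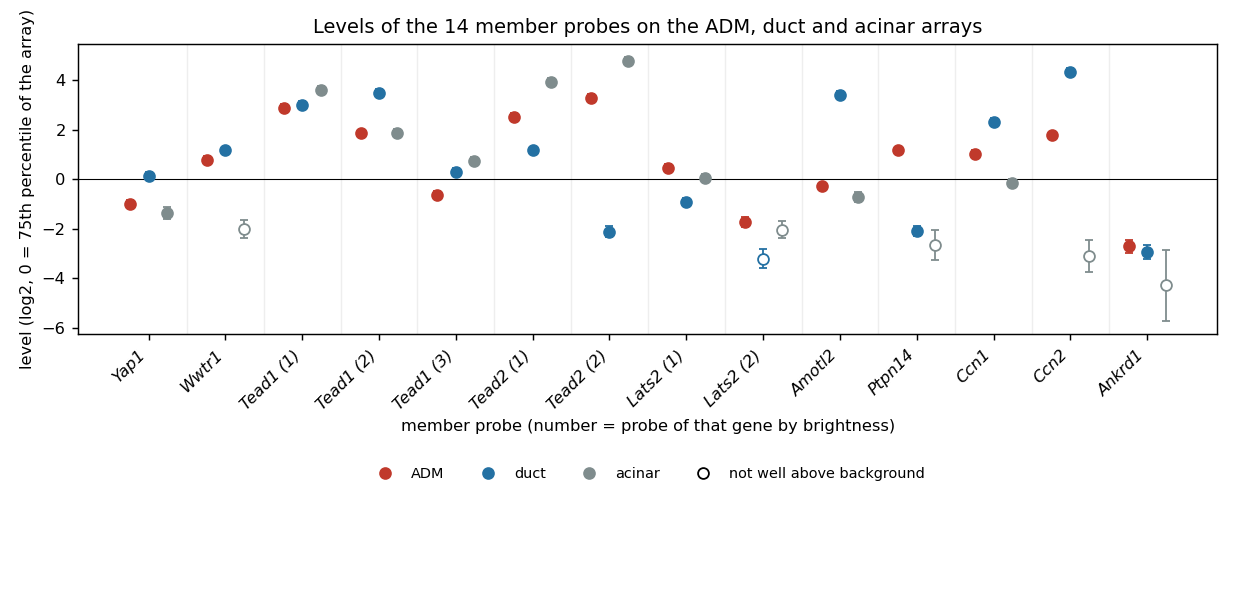
Level of each of the 14 member probes (log2, 0 is the 75th percentile of the array) on the ADM, duct and acinar arrays, 1 array each, with the spot error of the scanner software as the bar and open circles for probes not well above background. Ccn2 lies at 1.78 on ADM, 4.33 on duct and −3.10 on acinar, and both Tead2 probes are lowest on duct.

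Promoter sequence was set beside these patterns for the genes whose measured levels shared the duct, ADM, acinar order, and for Tead2, which ran the other way. The sequences are from RefSeq (build GRCm38.p6), and 8 of the 10 members were matched, all but Ccn2 and Tead1. Each promoter held 250 bases before and 50 bases after the annotated start. They were searched on both strands for GGAATG, the core of the TEAD motif, which reads CATTCC on the opposite strand. No other motif was searched. A match was found in 7 of the 8 genes (Yap1, Wwtr1, Lats2, Amotl2, Ptpn14, Ccn1 and Ankrd1), the exception being Tead2, while 16.6% of all 27025 genes in the promoter table and 15.2% of the 16753 of them named on the array held one. These are matches of letters, not sites shown to be bound, and Lats2, Ptpn14 and Ankrd1, which did not show the duct, ADM, acinar order, held them too. Several of these genes were taken as known targets of YAP and TEAD, so a high share with the motif may follow from that choice. Below are the 250 bases before the start, 5′ to 3′ on the strand of the gene, with the match in capitals; they lie on the minus strand at chr3:145649986-145650235 for Ccn1, chr9:8004597-8004846 for Yap1 and chr3:57575911-57576160 for Wwtr1, and on the plus strand at chr9:102717554-102717803 for Amotl2 and chr7:45215542-45215791 for Tead2.
Ccn1: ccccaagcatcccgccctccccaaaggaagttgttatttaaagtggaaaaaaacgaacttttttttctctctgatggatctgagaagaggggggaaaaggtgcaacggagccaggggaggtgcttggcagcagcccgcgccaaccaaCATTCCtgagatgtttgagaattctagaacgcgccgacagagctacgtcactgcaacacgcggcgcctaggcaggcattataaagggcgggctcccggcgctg
Amotl2: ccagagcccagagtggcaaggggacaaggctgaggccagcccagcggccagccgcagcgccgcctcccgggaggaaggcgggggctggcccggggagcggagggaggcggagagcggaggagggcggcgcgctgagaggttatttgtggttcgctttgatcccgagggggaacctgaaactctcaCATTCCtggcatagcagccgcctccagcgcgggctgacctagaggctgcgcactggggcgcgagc
Yap1: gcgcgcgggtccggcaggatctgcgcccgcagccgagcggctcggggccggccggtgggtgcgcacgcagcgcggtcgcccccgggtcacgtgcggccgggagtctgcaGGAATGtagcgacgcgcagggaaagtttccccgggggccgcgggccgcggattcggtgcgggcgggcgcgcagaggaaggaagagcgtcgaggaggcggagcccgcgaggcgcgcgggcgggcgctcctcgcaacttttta
Wwtr1: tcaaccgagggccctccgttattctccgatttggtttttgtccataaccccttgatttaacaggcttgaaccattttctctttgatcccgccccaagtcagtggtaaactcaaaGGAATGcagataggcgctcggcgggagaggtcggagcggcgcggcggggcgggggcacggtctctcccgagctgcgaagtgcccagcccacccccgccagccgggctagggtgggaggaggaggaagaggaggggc
Tead2: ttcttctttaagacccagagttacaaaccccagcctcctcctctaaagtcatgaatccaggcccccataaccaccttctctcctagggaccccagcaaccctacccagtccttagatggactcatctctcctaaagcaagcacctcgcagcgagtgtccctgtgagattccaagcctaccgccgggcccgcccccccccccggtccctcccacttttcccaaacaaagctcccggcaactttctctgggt
Counted from the start, the match lay at −103 to −98 in Ccn1, −65 to −60 in Amotl2, −141 to −136 in Yap1 and −136 to −131 in this Wwtr1 promoter. The second Wwtr1 promoter in the table overlaps the first and holds the same match. Ankrd1 held a pair of matches, at −210 to −205 and −123 to −118, Ptpn14 1 at −146 to −141, and Lats2 1 just after the start of its first promoter. The second Lats2 promoter held 0.

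The coactivators both had their lowest measured level in acinar cells. Yap1, which binds TEAD through its N-terminal domain and carries the transactivation domain, had a level of −0.99 ± 0.16 in ADM cells, 0.14 ± 0.15 in duct cells and −1.38 ± 0.24 in acinar cells. ADM was thus close to acinar (difference 0.39 ± 0.29, which is 1.31-fold) and 2.20-fold below duct (−1.13 ± 0.22), and duct was 2.87-fold above acinar (1.52 ± 0.28). With normexp background correction the Yap1 differences shrank to −0.54 for ADM minus duct and 0.45 for duct minus acinar, both under 2-fold, and to −0.09 for ADM minus acinar, where the sign turned.

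Wwtr1, which encodes the YAP paralogue TAZ, had a level of 0.80 ± 0.15 in ADM cells and 1.16 ± 0.15 in duct cells, and was not well above background in acinar cells (measured level −1.999). The excess over acinar was at least 6.94-fold for ADM and at least 8.96-fold for duct, while ADM and duct differed by −0.37 ± 0.21, within 2-fold. With normexp correction the difference between ADM and acinar was 0.93, just under 2-fold, and that between duct and acinar 1.25. ADM cells therefore lay nearer to duct cells for Wwtr1 and nearer to acinar cells for Yap1 on this scale, and no test of that contrast between the genes was possible.

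The TEAD transcription factors, which give YAP and TAZ their contact with DNA, differed from each other. Tead2 had a pair of probes for the same accession. The first gave levels of 2.51 ± 0.14 in ADM cells, 1.17 ± 0.15 in duct cells and 3.94 ± 0.14 in acinar cells. The second gave 3.29 ± 0.14 in ADM, −2.11 ± 0.21 in duct and 4.79 ± 0.14 in acinar. Both probes therefore ordered the arrays the same way, with duct lowest.

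Against acinar cells, Tead2 was 2.68-fold lower in ADM by the first probe and 2.81-fold lower by the second, and normexp correction put the first at −0.77, under 2-fold. Against duct cells it was 2.53-fold higher in ADM by the first probe and 42.3-fold by the second, with 0.90 for the first under normexp. Duct was 6.79-fold below acinar by the first probe and 119-fold by the second. The direction was shared by both probes in all 3 comparisons, but the size for duct differed between them by over 10-fold.

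Tead1 had 3 probes for a single accession, and they disagreed. The brightest gave 2.89 ± 0.14 in ADM cells, 3.01 ± 0.14 in duct cells and 3.61 ± 0.14 in acinar cells, with every difference within 2-fold. The next gave 1.86 ± 0.14 in ADM, 3.49 ± 0.14 in duct and 1.87 ± 0.15 in acinar, so duct was 3.06-fold above acinar and ADM 3.09-fold below duct. The third gave −0.62 ± 0.15 in ADM, 0.31 ± 0.15 in duct and 0.74 ± 0.15 in acinar, with ADM 2.57-fold below acinar. The brightest and the next probe had opposite signs for duct against acinar (−0.61 and 1.61), so its direction there was not settled. All 3 probes were lower in ADM than in duct (−0.12, −1.63 and −0.93), and 1 of them passed 2-fold.

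The feedback inhibitors differed among themselves, with the measured level of Amotl2 highest in duct cells and those of Ptpn14 and Lats2 in ADM cells. Amotl2, an angiomotin relative that binds YAP and holds it at junctions, had a level of −0.29 ± 0.15 in ADM cells, 3.40 ± 0.14 in duct cells and −0.72 ± 0.19 in acinar cells. Duct stood far above both others, 17.4-fold above acinar (4.12 ± 0.24), and ADM was 12.9-fold below duct (−3.69 ± 0.21). ADM and acinar differed by 0.43 ± 0.24. Over 8 alternative settings, most of which can move a gene with 1 probe little, the difference between ADM and duct ranged from −3.85 to −2.96. The smallest size was that under normexp correction.

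Ptpn14, a protein tyrosine phosphatase that binds YAP and promotes its retention in the cytoplasm, was the member that stood out in ADM. Its level was 1.16 ± 0.15 in ADM cells and −2.08 ± 0.21 in duct cells, and it was not well above background in acinar cells (measured level −2.67). ADM exceeded duct by 9.45-fold (3.24 ± 0.25) and acinar by at least 9.24-fold. Duct and acinar could not be separated, since the bound between them was 0. The ADM differences stayed past 2-fold under all 7 alternatives that could be computed, from 1.70 to 3.34 against duct and from 1.14 to 3.83 against acinar, and both rest on 1 probe. Most of these alternatives cannot undo a large difference of a gene with 1 probe. The lowest values, 1.70 and 1.14, came from normexp correction.

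Lats2, a kinase that phosphorylates YAP and TAZ and is itself one of their targets, had probes for 2 accessions. The brighter one gave 0.46 ± 0.15 in ADM cells, −0.91 ± 0.16 in duct cells and 0.07 ± 0.16 in acinar cells. The dimmer one was well above background in ADM only (−1.72 ± 0.19). Lats2 was 2.58-fold higher in ADM than in duct by the first probe and at least 2.81-fold higher by the second, and normexp correction put the first at 0.73, under 2-fold. By the brighter probe ADM and acinar were within 2-fold (0.39 ± 0.22), as were duct and acinar (−0.97 ± 0.22, near the 2-fold line). The dimmer probe put ADM above acinar by at least 0.31, a bound that leaves the size unknown. For duct minus acinar, the mean of the Lats2 probes (−1.08) and the deposited value table (−1.02) lay just past 2-fold.

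The targets Ccn1 and Ccn2 are matricellular proteins, secreted into the matrix where they bind integrins, and their genes are widely used readouts of YAP activity. Ccn2 (also called Ctgf) had the widest range of the 10 genes by their brightest probes. Its level was 1.78 ± 0.14 in ADM cells and 4.33 ± 0.14 in duct cells, and it was not well above background in acinar cells (measured level −3.10). ADM exceeded acinar by at least 14.2-fold and was 5.87-fold below duct (−2.55 ± 0.20). Duct exceeded acinar by at least 83.1-fold. All 3 differences kept direction and 2-fold under the 7 alternatives that could be computed, most of which can move a gene with 1 probe little. Normexp correction gave 1.92 for ADM minus acinar, −2.47 for ADM minus duct and 4.39 for duct minus acinar.

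Ccn1 (also called Cyr61) followed the same order over a narrower range, with 1.04 ± 0.15 in ADM cells, 2.31 ± 0.14 in duct cells and −0.15 ± 0.17 in acinar cells. ADM was 2.28-fold above acinar (1.19 ± 0.22) and 2.42-fold below duct (−1.27 ± 0.21), and duct was 5.50-fold above acinar (2.46 ± 0.22). The first of these fell to 0.69 with normexp correction, under 2-fold.

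Ankrd1, a nuclear ankyrin-repeat protein best known from stressed muscle, was dim everywhere. It had levels of −2.71 ± 0.27 in ADM cells and −2.93 ± 0.28 in duct cells, near the lowest signal called well above background on those arrays (−3.15 and −3.28), and was not well above background in acinar cells. ADM and duct differed by 0.22 ± 0.39, within the spot error, and neither could be separated from acinar, since both bounds were 0. The acinar array did not reach low enough to show a difference in Ankrd1.

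**Figure D2:**
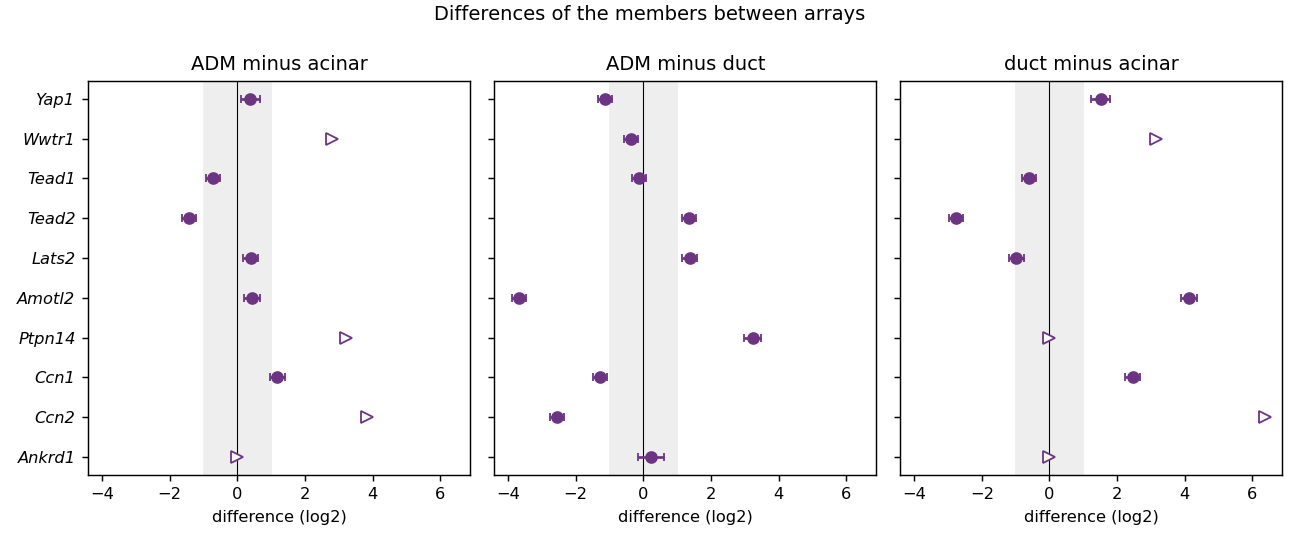
Difference of each member by its brightest probe (log2, first array minus second) for ADM minus acinar, ADM minus duct and duct minus acinar, with the combined spot error as the bar, open triangles for lower bounds and a grey band for less than 2-fold. Ccn2 reaches at least 6.38 for duct minus acinar, and Ptpn14 lies past 3 in both ADM comparisons and at a bound of 0 between duct and acinar.

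Counted together, all 10 members were compared in each of the 3 comparisons. Between ADM and acinar, 4 were at least 2-fold higher in ADM (Wwtr1, Ptpn14, Ccn1 and Ccn2), against 21.8% of all 13620 genes compared, and 1 was lower (Tead2), against 22%. The median difference of the members was 0.41, beside 0 for all genes, and 4 of the 10 differences were bounds. Between ADM and duct, 3 were higher in ADM (Tead2, Lats2 and Ptpn14), against 21.6% of 14465 genes, and 4 lower (Yap1, Amotl2, Ccn1 and Ccn2), against 24.8%. Here the median was −0.24, beside −0.05 for all genes. Between duct and acinar, 5 were higher in duct (Yap1, Wwtr1, Amotl2, Ccn1 and Ccn2), against 27.4% of 13820 genes, and 1 lower (Tead2), against 24.6%, with a median of 0.76 beside 0. Of all genes past 2-fold here 52.8% were higher in duct, and 64.7% under median scaling, which left every count of members as given. The comparisons share arrays, so their counts are not independent, and with 10 genes the shares are coarse.

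Other genes reported as YAP and TAZ targets were taken from a published signature of 22 genes, 6 of which are among the members. Of the other 16, 14 were compared between duct and acinar, where 7 were higher in duct by 2-fold or more and 2 lower (median 1.34), beside 27.4% and 24.6% of all genes, and 8 of the 14 differences were bounds. Tissue factor (F3), which starts coagulation, was 33.1-fold higher in duct (4.67 against −0.37), although its second probe gave a bound of 0. The RNA-binding protein gene Rbms3 was at least 31.4-fold higher, the stress gene Gadd45a 7.02-fold, the membrane-repair gene Myof at least 4.38-fold and the growth factor gene Tgfb2 at least 3.79-fold. Lower were Dock5 (at least 17.6-fold) and Ccdc80 (2.09-fold). Under median scaling 10 were higher and 1 lower, beside 4724 and 2572 of all 13820 genes. Under normexp correction 4 were higher and 1 lower, with a median of 0.46, beside 2877 and 1501 of 13805 genes. A bound can point only toward the array on which the gene was well above background. Restricted to genes well above background on all 3 arrays, 6 were compared, with 2 higher in duct and 1 lower (median 0.52). Of all 9525 such genes, 2296 were higher in duct and 2397 lower (median −0.15).

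Between ADM and acinar, 12 of those 16 genes were compared, and 6 were higher in ADM and 2 lower (median 0.77), beside 21.8% and 22% of all genes. Normexp correction gave 4 higher and 2 lower, with a median of 0.16, beside 1707 and 942 of all 13594 genes. Restricted to genes well above background on all 3 arrays, 6 were compared, with 4 higher and 1 lower (median 1.61). Of all 9525 such genes, 1685 were higher and 2057 lower (median −0.23). Without that restriction, the 4 largest of the signature genes higher in ADM were Rbms3 (at least 6.77-fold), Gadd45a (5.89-fold), the receptor tyrosine kinase gene Axl (4.56-fold) and F3 (4.22-fold). Dock5 (12.0-fold) and Fjx1 (7.95-fold) were lower in ADM. Between ADM and duct, 2 of 14 were higher in ADM, Ccdc80 (4.62-fold) and Axl (2.70-fold), and the median was −0.95. Another 6 were lower, led by Myof (at least 9.43-fold), Fjx1 (9.14-fold), F3 (7.85-fold) and Crim1 (at least 7.54-fold). The second F3 probe was not well above background on ADM and gave a bound of −0.27, so lower by at least that much. The shares over all genes were 21.6% higher and 24.8% lower. Normexp correction gave 1 higher and 5 lower with a median of −0.58, beside 1503 and 2176 of all 14467 genes. The 6 signature genes well above background on all 3 arrays gave 2 higher and 2 lower (median −0.38). Of all 9525 such genes, 1712 were higher in ADM and 2052 lower (median −0.03). By its brightest probe F3 thus had the same order of levels as Ccn1 and Ccn2, and Dock5 and Ccdc80 did not. The other CCN family genes Ccn3, Ccn4, Ccn5 and Ccn6 were not well above background on any of the 3 arrays.

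Of 22 genes for upstream kinases and adaptors, 20 were compared. Between duct and acinar 10 were higher in duct and 3 lower (median 0.77), beside 27.4% and 24.6% of all genes. Normexp correction gave 8 and 1, beside 2877 and 1501 of all 13805 genes. The angiomotin Amot was 11.9-fold higher in duct (3.98 against 0.41), the TAO kinase gene Taok2 11.3-fold, and the MST kinase genes Stk3 and Stk4 5.89-fold and 5.70-fold. Lower in duct were the LATS cofactor gene Mob1a (6.42-fold), Nf2, which encodes merlin (6.17-fold), and Lats1, the paralogue of Lats2 (2.04-fold). The second probes of Stk4 and Nf2 gave a bound of 0 in this comparison. That of Taok2 was not well above background on duct or acinar and could not be compared. Between ADM and acinar 4 were higher in ADM, namely Stk3 (11.4-fold), the second MOB gene Mob1b (6.05-fold), Fat1 (3.36-fold) and Sav1 (2.78-fold), and 6 were lower (median −0.25), among them Taok3 (5.72-fold) and the Kibra relative Wwc2 (at least 9.57-fold). These counts are near the shares of all genes (21.8% and 22%). Normexp correction gave 3 and 3, beside 1707 and 942 of all 13594 genes. Between ADM and duct 2 were higher in ADM, Mob1a (3.97-fold) and Mob1b (2.30-fold), and 9 lower (median −0.52), among them Taok3 (13.04-fold), Wwc2 (at least 12.5-fold), Amot (8.45-fold) and Wwc1, also called Kibra (7.56-fold). All genes had 21.6% higher and 24.8% lower. Normexp correction gave 0 higher and 7 lower in this list, beside 1503 and 2176 of all 14467 genes. Both angiomotins that were well above background on all 3 arrays, Amot and Amotl2, were therefore over 8-fold lower in ADM than in duct. Taok2 had the largest differences of this list by its brightest probe, lower in ADM by 146-fold against duct and 12.9-fold against acinar. Its second probe was well above background on ADM only and gave bounds of the opposite sign (at least 1.94 and at least 0.71). Such bounds can point only toward ADM. The second probes of Nf2 for ADM against acinar and of Stk4 for ADM against duct also had the opposite sign, so these directions were not settled.

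Of the other TEAD and Vestigial-like genes, whose products bind DNA or compete with YAP for TEAD, Tead4 and Vgll1 were not well above background on any array and Tead3 only on duct (level −3.03). Tead1 and Tead2 were thus the TEAD genes with clear signal on all 3 arrays. Vgll3 in ADM exceeded duct by at least 6.78-fold and acinar by at least 2.89-fold. Vgll4, which competes with YAP for TEAD, was 3.64-fold lower in ADM than in duct and 2.44-fold lower than in acinar. Normexp correction left no gene of this short list past 2-fold in any comparison.

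**Figure D3:**
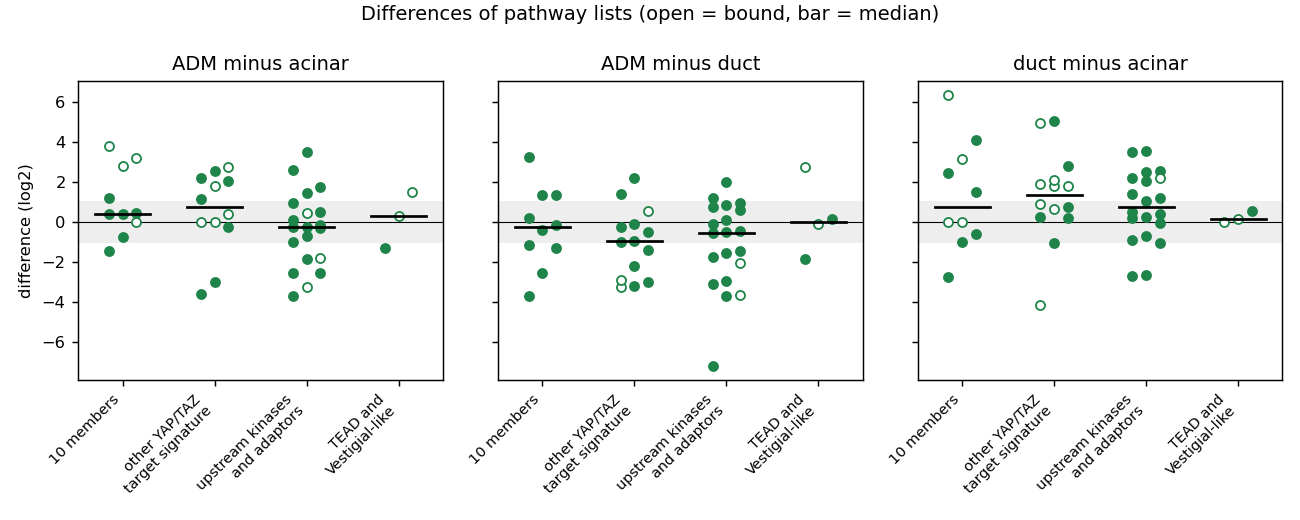
Difference of each compared gene (log2, first array minus second) in 4 lists for ADM minus acinar, ADM minus duct and duct minus acinar, with open circles for bounds, bars for medians and a grey band for less than 2-fold. The median of the other signature genes is 0.77, −0.95 and 1.34 in these comparisons, and that of the 10 members 0.41, −0.24 and 0.76.

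Markers of other cells also differed between the arrays, some lists in the direction of the members and others not. Digestive enzymes and acinar factors (10 genes, all well above background on each array) summed to 7013 units of the array's 75th percentile on ADM, 1055 on duct and 23373 on acinar, and duct markers to 45.03, 121 and 19.2 with 9, 9 and 7 of 10 well above background. These sums ordered the arrays as their labels say, but not every marker did. Of 9 duct markers compared, 7 were lower in ADM than in duct (24.8% of all genes), and Krt7 was 2.22-fold higher. Of the acinar markers, 9 were lower in ADM than in acinar (22% of all genes), and Ptf1a did not differ (−0.03). Cftr was not well above background on any array. Fibroblast and stellate cell markers, from cells in which Ccn2 and Ccn1 are also well known, summed to 338 on ADM, 329 on duct and 82.1 on acinar. All 10 of them were well above background on ADM, 9 on duct (not Postn) and 9 on acinar (not Thy1). Between ADM and duct 1 of the 10 was higher in ADM (Postn, at least 39.8-fold), 1 lower (Thy1, 5.03-fold) and 8 within 2-fold, with a median of 0.06. Against acinar, 9 of the 10 were higher in ADM and 8 in duct, beside 21.8% and 27.4% of all genes. Ccn2, Ccn1 and Wwtr1 were higher in both comparisons too. The part of these cells in the differences of the members was not tested in any comparison.

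Smooth muscle and pericyte markers summed to 20.3 on ADM, 29.5 on duct and 12.3 on acinar (5, 6 and 4 of 6 well above background). Of these 6, 5 were lower in ADM than in duct (median −2.06), among them Acta2 (14.6-fold) and Cnn1 (7.04-fold), and Rgs5 was 7.61-fold higher. Endothelial markers summed to 14.1 on ADM, 21.5 on duct and 15.2 on acinar (6, 7 and 4 of 9 well above background, with Tek on none). Kdr (3.75) was the only one with a level above 0 on acinar, so it dominates that sum. Of 7 compared between ADM and acinar, 4 were higher in ADM and 2 lower (median 1.40), beside 21.8% and 22% of all genes. Between duct and acinar, also of 7, 4 were higher in duct and 1 lower (median 2.04), beside 27.4% and 24.6%. Of these differences 4 and 3 were bounds. Of 8 compared between ADM and duct, 5 were lower in ADM and 1 higher (median −1.26). Over all genes 24.8% were lower in ADM than in duct and 21.6% higher. Both lists thus moved in the same direction as Ccn1, Ccn2 and Amotl2 between ADM and duct. Macrophage markers summed to 153 on ADM, 41.2 on duct and 57.8 on acinar, with 8, 8 and 7 of 8 well above background. Between ADM and duct 6 of the 8 were higher in ADM and 1 lower (median 2.54), opposite in direction to Ccn1, Ccn2 and Amotl2. Mesothelial markers summed to 1.45 on ADM, 6.94 on duct and 0.242 on acinar, with 1, 2 and 0 of 4 well above background. Msln was at least 49.5-fold and Upk3b at least 11.2-fold lower in ADM than in duct, the direction of Ccn2 and Amotl2, and Wt1 was at least 11.9-fold higher. Endothelial and muscle cells also express Ccn1, Ccn2 and Amotl2, and the part of these lists in the levels of the members was not tested.

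**Figure D4:**
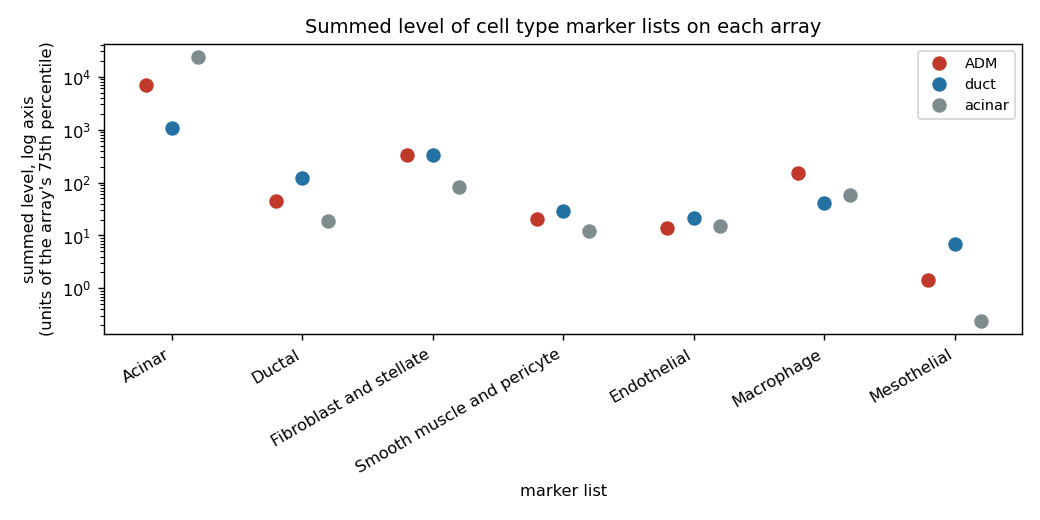
Summed linear level of 7 marker lists on the ADM, duct and acinar arrays, in units of the array's 75th percentile on a log axis, 1 point per array. Fibroblast and stellate markers are at 338 on ADM, 329 on duct and 82.1 on acinar.

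The genes with the most similar pattern were sought for the 6 members well above background on all 3 arrays, as the distance between levels centred over the 3 arrays among 9524 genes. Amotl2 had the rarest pattern, with 18 genes within 0.5 log2 units, the nearest being Abhd14a (distance 0.08) and Ipo13 (0.12). Tead2 had 220 such genes (nearest Kdelr2 and Actrt2) and Ccn1 317 (Daam1 and Stbd1). Lats2 had 528 (Cox4i2 and Dusp18), Yap1 659 (Pop7 and Tpm4) and Tead1 1845 (Ppp2r5c and Olfr1036). With 3 arrays many genes share any pattern by this measure, so the names are a description only.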

How the data were processed

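The deposited scanner tables of 3 Agilent 1-colour arrays (Cy3) hold spot intensity, background-subtracted and spatially detrended within each array and not scaled between arrays, per the file headers (Feature Extraction 11.5.1.1, array annotation mm9). Per the labels' protocols, 1.181 ng RNA was amplified. Flags, another deposited measure, mark outlier and saturated spots (0 saturated) and signal well above background. Control and outlier spots were left out, spots of a probe averaged as log2 intensity, and the 75th percentile over 55664 probes subtracted. Probes were named by RefSeq accession through the GRCm38.p6 gene table (28020 named). The probe with the highest mean stood for a gene. A side not well above background was raised, where lower, to the dimmest level well above background on its array; where the other side lay below that level, the bound was 0. The deposited value table of log2 values, whose making by the authors the sources used here do not state, equals the log2 signal plus an array-wide constant (ADM −6.17, duct −6.58, acinar −5.13; column medians −0.56, −0.63 and −0.57). It is thus not centred per gene and not turned in sign; it served as an alternative. All 10 members are named; of other lists, up to 6 genes a comparison by size of the difference, and beyond these (Ccdc80, Axl, Lats1, Fat1, Sav1, Mob1b) those that complete a count of 5 or fewer, chosen after their values were seen, as were the marker genes given with folds. Likeness names the 2 nearest genes. Members and lists were chosen with earlier results of these data known. Normexp used limma 3.58.1 (offset 50) on median spot intensity, since the tables hold no mean signal; Python 3.11.15 did the rest, checked on simulated data.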

Additional observations from a re-analysis of the deposited data

How the results depend on the processing

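No paired analysis was possible because each group has 1 array. Of 30 differences (10 members, 3 comparisons), 17 kept their side of 2-fold and their direction under every one of the 7 to 9 alternatives that could be computed for each, and 9 of the other 13 changed under normexp background correction, whose offset of 50 intensity units shrinks folds of dim spots. For a gene with 1 probe the mean of probes repeats the main value. Rescaling an array and the deposited value table shift all its genes alike, so neither can undo a large difference. Normexp gave 2 members higher and 0 lower in ADM than in acinar (against 4 and 1) and 1 higher in ADM than in duct (against 3). Restricting to genes well above background on all 3 arrays left 6 members, with 1 higher in ADM than in acinar and 3 higher in duct than in acinar (against 4 and 5). The second-brightest probe, which 3 members have, gave 0 higher in ADM than in acinar, 1 lower in ADM than in duct (against 4) and 1 higher in duct than in acinar. The mean of probes and the deposited value table each gave 2 members lower in duct than in acinar (against 1). With no filter and no bound, Ankrd1 was 1.57 higher in ADM and 1.35 higher in duct than in acinar, from an acinar spot not well above background. Median scaling moved differences of genes well above background by 0.23 for ADM minus acinar, −0.16 for ADM minus duct and 0.39 for duct minus acinar. Across all genes, normexp put 1707 higher and 942 lower in ADM than in acinar (against 2966 and 2996), 1503 higher and 2176 lower in ADM than in duct (against 3120 and 3594), and 2877 higher and 1501 lower in duct than in acinar (against 3791 and 3394). With no filter, 7969 were lower in ADM and 8829 lower in duct than in acinar. Restricted to genes well above background on all 3 arrays, 1685 were higher and 2057 lower in ADM than in acinar, 1712 and 2052 in ADM than in duct, and 2296 and 2397 in duct than in acinar; by the second-brightest probe these were 730 and 784, 1014 and 843, and 788 and 948, since fewer genes were compared. The acinar array, with the highest floor (−2.04), limits what can be said of dim genes there.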
